A study of Mus musculus with 26 samples.

Results

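The 8 genes Hoxa5, Hoxa7, Hoxa9, Hoxa10, Hoxb4, Meis1, Pbx3 and Mn1 encode transcription regulators of haematopoietic self-renewal. They were taken by symbol from a table of 24091 genes and described in 26 RNA-seq libraries of sorted LSK cells. All 8 symbols had a row, and all 8 were among the 13379 genes with enough reads to be tested. LSK cells lack lineage markers and carry Sca-1 and c-Kit. The fraction holds stem cells and multipotent progenitors of the bone marrow, here the leukemic stem cells of a mouse model of chronic myeloid leukaemia (CML).

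All mice were SCLtTA/BCR-ABL animals on the C57BL/6 background, so every group, wild types included, carried the BCR-ABL oncogene. In this model an enhancer of the Scl (Tal1) gene drives the tetracycline transactivator, which switches on BCR-ABL in stem and progenitor cells. The question was what loss of Spred1, an inhibitor of RAS-MAPK signalling, does to these cells when it occurs in the whole animal, in blood cells or in endothelium. The 6 global KO libraries came from mice lacking Spred1 in all cells, the 5 EC KO libraries from Spred1 ECΔ/Δ mice with deletion aimed at endothelial cells, and the 5 HSC KO libraries from Spred1 HSCΔ/Δ mice. Deletion in HSC KO mice was driven by Mx1-cre, which interferon inducers activate in blood cells and also in other tissues. The 5 HSC wt libraries came from Spred1 HSCwt/wt mice, and the 5 Spred1 wt libraries from BCR-ABL mice with intact Spred1. HSC KO and HSC wt mice received 7 doses of 250 µg poly(I:C), every 2 days; no such treatment is stated for global KO, EC KO or Spred1 wt mice. The labels give 5 mice a group for HSC KO, HSC wt and EC KO, and do not say whether libraries of the other groups came from single mice, so p-values there measure the spread between libraries. The wild-type group made for EC KO was not analysed here, and Spred1 wt stands in for it. EC KO and global KO are therefore set against the same 5 controls. The age of the mice and the driver of the endothelial deletion are not given in the sources used here.

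HOX proteins are homeodomain transcription factors encoded in clusters, and MEIS and PBX proteins of the TALE homeodomain class bind DNA together with them. In blood, HOXA and HOXB genes and Meis1 are high in stem cells and are switched off as cells differentiate. Hoxa9 and Meis1 together transform marrow cells in mice, and leukaemias with MLL fusions depend on them. Mn1 is a coactivator whose overexpression causes myeloid leukaemia in mice and depends on the same HOXA and MEIS1 programme.

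Sequencing gave between 14816071 and 26714325 counted reads per library. Levels are CPM, read counts scaled to library size with TMM factors, and levels of different genes are set side by side only as RPKM, which also divides by the length the table gives. Differences are log2 values from edgeR's quasi-likelihood test fitted to all 26 libraries, with p-values adjusted by Benjamini-Hochberg over the 13379 genes. A gene is said to pass at an adjusted p under 0.05. Spred1 averaged 32.7 ± 7.36 CPM in global KO, 70.4 ± 11.4 CPM in EC KO and 35.4 ± 7.29 CPM in HSC KO, against 104 ± 4.90 CPM in HSC wt and 114 ± 20.8 CPM in Spred1 wt (SD, n = 6 for global KO and 5 for the others). It passed as lower in global KO, HSC KO and EC KO. Xist reads marked 0 of 6 global KO, 2 of 5 EC KO, 3 of 5 HSC KO, 2 of 5 HSC wt and 0 of 5 Spred1 wt libraries as female, so sex differs between groups. In the mean log2 CPM of 11 mast cell and basophil markers, 4 libraries stood apart. EC KO 3, EC KO 4, EC KO 5 and HSC KO 1 had 5.09 to 5.40, against 6.40 to 9.48 in the other 22. Summed CPM of the markers did not set EC KO apart, at 1980 to 5100 CPM, within the 1550 to 13600 CPM of global KO. Against Spred1 wt, EC KO had 8 of the 11 markers with a log2 difference below 0 and 3 above. Of the sort markers, only Kit, the gene of c-Kit, is given here. It averaged 829 ± 225 CPM over the 26 libraries (SD), from 344 CPM in EC KO 3 to 1249 CPM in HSC KO 2. Kit alone does not show how pure the sort was.

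Hoxa5, Hoxa7, Hoxa9 and Hoxa10 lie in the HOXA cluster on the minus strand of chromosome 6 in build mm10, between 52201754 (the end of Hoxa5) and 52240854 (the start of Hoxa10). Hoxb4 is on chromosome 11 at 96318267 to 96321638, plus strand, and Meis1 on chromosome 11 at 18880428 to 19018969, minus strand. Pbx3 is on chromosome 2 at 34171457 to 34372045, minus strand, 82.7 Mb from Spred1 on the same chromosome, and Mn1 is on chromosome 5 at 111418166 to 111457025, plus strand. The row of Hoxa5 overlaps those of Hoxa3, on its own strand, and of Hoxaas3, on the other strand, and the strand setting of counting is not given in the sources used here, so reads shared by these rows cannot be assigned. The other 7 genes overlapped no row spanning less than 1 Mb.

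The HOXA cluster also encodes a microRNA, miR-196b, that pairs with HOX transcripts. Its mature sequence and that of miR-10a, encoded beside Hoxb4, are shown from RefSeq (GRCm38.p6), 5′ to 3′, with the seed, bases 2 to 8, in capitals.
mmu-miR-196b-5p: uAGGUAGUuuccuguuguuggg
mmu-miR-10a-5p: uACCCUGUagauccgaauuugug
The 7-base match to the miR-196b seed, ACTACCT in DNA letters, occurs in the 3′ untranslated region of Hoxa5, Hoxa7, Hoxa9 and Pbx3, 4 of the 8 genes, in the longest protein-coding transcript of each in GENCODE M21. Of 21875 protein-coding genes, 5.81% hold this match, without regard to the length of the region. Hoxa7 holds it 4 times, and each of the other 3 genes once. The sites are shown with the seed match in capitals, on the transcript's strand.
Hoxa7 site 1, chr6:52215400-52215422: aggcacagccaaaatACTACCTa
Hoxa7 site 2, chr6:52215363-52215385: gagaggcactcccaaACTACCTa
Hoxa7 site 3, chr6:52215231-52215253: caaaccatgatcaatACTACCTa
Hoxa7 site 4, chr6:52215210-52215232: tactactagccctaaACTACCTa
Hoxa5 site, chr6:52202118-52202140: gatatttttattcaaACTACCTa
Hoxa9 site, chr6:52223900-52223922: gcaaaaggaaagaaaACTACCTt
Pbx3 site, chr2:34172003-34172025: ttagagcgctcacttACTACCTc
The 4 Hoxa7 sites lie beyond the 3′ end of the row that the deposited table gives for this gene, 52215624, so its counts do not cover them. All 4 Hoxa7 sites and the Hoxa5 site are followed by an A, which the Hoxa9 and Pbx3 sites lack. The seed match of miR-10a, ACAGGGT, is in none of the 8 genes and in 11.8% of all. The rows of the host genes, Mir196b and Mir10a, held 107 and 99 reads over the 26 libraries and were too low to be tested. Reads of a total RNA library in these rows do not measure the mature microRNAs.

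Windows of 250 bases before the start of the gene were at hand for Hoxa5, Hoxa7, Hoxa9, Hoxa10, Hoxb4 and Meis1. They are shown for Hoxa9 and Hoxa10, whose levels moved together most closely, and for Meis1, the most abundant of the 8 genes per length. CG dinucleotides, the bases at which mammalian DNA is methylated, are in capitals (RefSeq, GRCm38.p6, each on the gene's own strand).
Hoxa9, chr6:52227371-52227620, minus strand: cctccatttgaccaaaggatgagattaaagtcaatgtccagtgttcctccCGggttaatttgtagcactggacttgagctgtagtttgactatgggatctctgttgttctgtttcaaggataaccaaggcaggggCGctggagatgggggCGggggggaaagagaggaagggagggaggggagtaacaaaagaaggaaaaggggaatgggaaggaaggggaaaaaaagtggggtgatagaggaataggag
Hoxa10, chr6:52234940-52235189, minus strand: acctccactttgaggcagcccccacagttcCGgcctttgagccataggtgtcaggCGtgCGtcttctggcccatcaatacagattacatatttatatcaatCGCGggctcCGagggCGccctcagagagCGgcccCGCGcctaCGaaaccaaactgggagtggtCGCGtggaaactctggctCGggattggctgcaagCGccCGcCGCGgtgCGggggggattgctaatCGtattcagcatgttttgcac
Meis1, chr11:19018970-19019219, minus strand: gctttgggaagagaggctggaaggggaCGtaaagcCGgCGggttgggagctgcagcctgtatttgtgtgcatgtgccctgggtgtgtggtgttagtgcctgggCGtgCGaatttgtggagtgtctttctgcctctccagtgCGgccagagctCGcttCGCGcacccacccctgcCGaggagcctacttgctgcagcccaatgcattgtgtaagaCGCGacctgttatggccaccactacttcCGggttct
Hoxa9 had 3 CG dinucleotides in this window, Hoxa10 had 20 at this start and Meis1 had 13, against a median of 6 over 32851 windows. The window before the other start of Hoxa10, chr6:52240855-52241104, is not shown and had 7. The letters TGACAG, the core bound by MEIS proteins, and TGATNNAT, bound by PBX with HOX, were searched on both strands. Neither is in any of the windows of the 6 genes, which number 7 because Hoxa10 has a pair of starts. Of all windows, 15.9% hold TGACAG and 7.68% hold TGATNNAT.

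Meis1 and Hoxa9 were the highest of the 8 genes per length. Over the 26 libraries, mean RPKM was 30.2 for Meis1, 25.8 for Hoxa9, 10.97 for Hoxa7, 7.64 for Hoxa5, 6.31 for Hoxb4, 2.64 for Hoxa10, 1.89 for Pbx3 and 1.79 for Mn1. Meis1 stood above 81.0% of the genes tested and Hoxa9 above 77.3%, while Pbx3 stood above 21.7% and Mn1 came next below it. Neighbours in this order overlapped in their ranges over libraries, except that Hoxa9 had at least 18.97 RPKM in every library and Hoxa7 at most 12.98. The HOXA and HOXB genes were not uniformly on. Of 14 other HOXA cluster rows, 4 had no read in any library (Hoxa11, Hoxa13, Evx1 and Hottip) and 6 were high enough to be tested, led by Hoxa6 with 4.21 RPKM and Hoxa3 with 4.07 RPKM. Of 11 other HOXB rows, Hoxb13 had no read and 6 were tested, led by Hoxb3 with 2.98 RPKM. None of 18 HOXC and HOXD genes was high enough to be tested, 7 had no read at all, and no library held more than 11 reads of any of them.

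**Figure D1:**
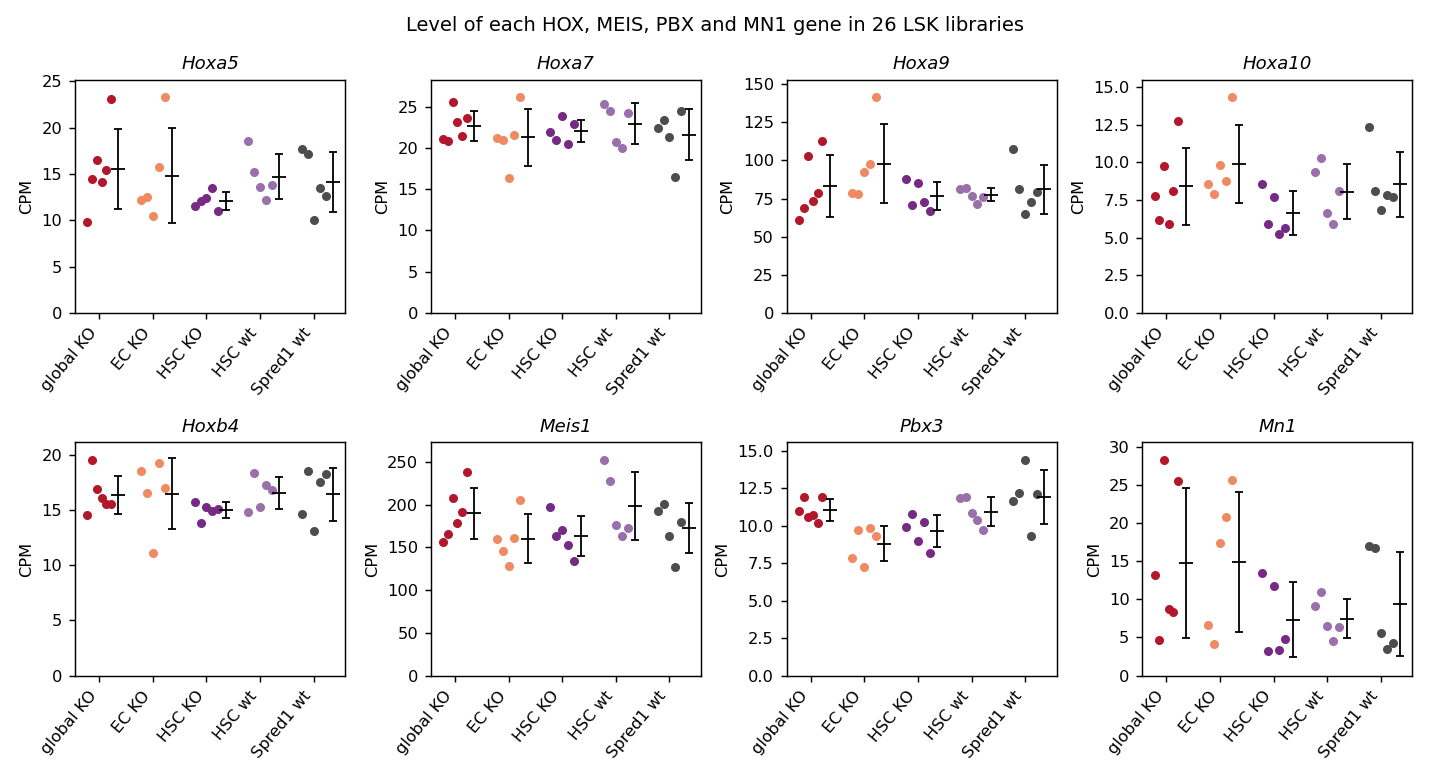
Level in CPM of each of the 8 genes (vertical axis, from 0) in every library, by group (horizontal axis); points are libraries in replicate order, and the bar beside them is the mean ± SD (n = 6 for global KO, 5 for the others). Pbx3 in EC KO lies between 7.25 and 9.87 CPM, against 9.29 to 14.4 CPM in Spred1 wt, and Mn1 spreads from 3.29 to 28.3 CPM over the 26 libraries.

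In global KO cells, set against Spred1 wt, 7 of the 8 genes had log2 differences between -0.11 and 0.13, and Mn1 had 0.65. None of the 8 passed, where 0.0747% of all genes tested did. Hoxa9, the HOX factor with the highest level, had a lowest value of 61.2, a median of 76.1 and a highest of 113 CPM in the 6 global KO libraries, against 108, 81.2, 65.1, 72.7 and 79.0 CPM in the 5 Spred1 wt libraries. The groups overlapped almost entirely, with global KO 1 lowest and global KO 6 highest of the 11. The log2 difference was 0.03 with a 95% interval of -0.29 to 0.36 (edgeR adjusted p = 0.999). Meis1, the TALE partner of Hoxa9, had 156, 185 and 239 CPM as the lowest, median and highest in global KO, against 193, 201, 164, 127 and 180 CPM in Spred1 wt. Meis1 reached higher in global KO 3 and global KO 6 than in any control, and its log2 difference was 0.13 with an interval of -0.15 to 0.42 (edgeR adjusted p = 0.990). The intervals of Hoxa7, Hoxb4 and Pbx3, the members with the least spread, all lay within -0.33 and 0.28.

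Mn1 was the member with the widest interval in global KO cells. It had 4.66, 10.9 and 28.3 CPM as the lowest, median and highest in global KO, against 16.99, 16.7, 5.57, 3.51 and 4.23 CPM in Spred1 wt. Spred1 wt split into high and low libraries, while global KO also had libraries in between. The groups overlapped, with global KO 3 and global KO 6 above all controls. Its log2 difference was 0.65 with an interval of -0.49 to 1.79 (edgeR adjusted p = 0.973), and it was -0.05 with the mast cell markers as a covariate. Of the 8 genes, 5 were above and 3 below 0, where 54.5% of all genes were above, with a median of 0.05, against a median of 0.01 over all genes. Among 11 mature neutrophil markers, 10 lay below 0 in global KO and 1 above, with a median of -2.255. Mast cell and basophil markers had 9 below 0 and 2 above, with a median of -0.97. Stem cell markers had 5 below 0 and 7 above, with a median of 0.02. None of these markers passed, and their part in the differences of the 8 genes was not tested.

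In HSC KO cells each of the 8 genes was a little below HSC wt, and none passed, where 0.0224% of all genes tested did. Meis1 had 198, 163, 170, 153 and 135 CPM in HSC KO, against 253, 228, 176, 164 and 172 CPM in HSC wt. HSC wt 1 and HSC wt 2 were the highest, and 3 of the 5 HSC KO libraries lay below all HSC wt libraries. The log2 difference was -0.28 with an interval of -0.58 to 0.02 (unadjusted p = 0.0676, edgeR adjusted p = 0.999). The markers of haematopoietic stem cells summed to 475 to 727 CPM in HSC KO and 539 to 811 CPM in HSC wt, and HSC wt 1 and HSC wt 2, where Meis1 was highest, had the highest mean marker level of their group. Of the 12 stem cell markers, 10 lay below 0 in HSC KO, with a median log2 difference of -0.32, and none passed. All 8 erythroid markers tested lay above 0 with a median of 2.88, and summed to 6.74 to 372 CPM in HSC KO and 14.3 to 17.5 CPM in HSC wt. This rise lay in HSC KO 1 alone, where the mean log2 CPM of the erythroid markers was 4.575. It was -1.2099 to 0.1556 in the other HSC KO libraries, against -0.2145 to 0.5903 in HSC wt. Of 11 mature neutrophil markers, 10 lay below 0 with a median of -0.86, and they summed to 136 to 644 CPM in HSC KO and 181 to 934 CPM in HSC wt. The part of these lists in the differences of the 8 genes was not tested. In RNA from sorted bulk cells, fewer stem cells in the sort and less RNA per cell cannot be told apart.

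Hoxa5, a HOX factor of early myeloid and erythroid progenitors, had 11.6, 12.04, 12.4, 13.5 and 10.98 CPM in HSC KO, against 18.6, 15.2, 13.6, 12.2 and 13.8 CPM in HSC wt. The 2 groups overlapped only through HSC wt 4, and the log2 difference was -0.28 with an interval of -0.70 to 0.14 (edgeR adjusted p = 0.999). Hoxa10, which enlarges progenitor pools when overexpressed, had 8.57, 5.92, 7.72, 5.26 and 5.63 CPM in HSC KO, against 9.35, 10.3, 6.64, 5.92 and 8.06 CPM in HSC wt. Its groups overlapped over most of their range, and its log2 difference was -0.28, with an interval of -0.73 to 0.17 (edgeR adjusted p = 0.999). Hoxb4, known to expand stem cells when overexpressed, was at -0.14 and Pbx3 at -0.19, while Hoxa7, Hoxa9 and Mn1 lay between -0.06 and -0.01. All 8 values were below 0, against 43.1% of all genes, with a median of -0.16 against 0.02. The genes vary together, so these are not 8 separate observations, and the sign of Hoxa7 turned with limma voom, and those of Hoxa9 and Mn1 with sex as a covariate.

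**Figure D2:**
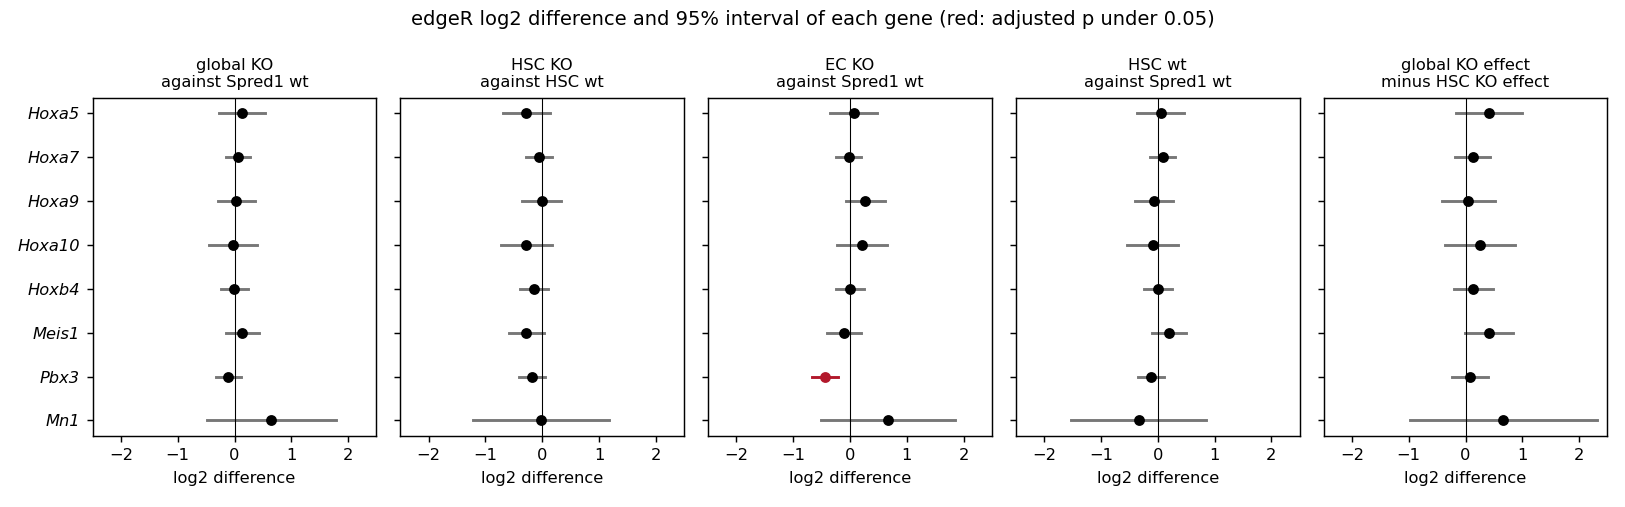
Log2 difference (horizontal axis) of each gene (vertical axis) in 5 comparisons from 1 edgeR fit to 26 libraries; points are estimates, lines 95% intervals, and red marks an adjusted p under 0.05. Only Pbx3 in EC KO is red, at -0.44, and the intervals of Mn1 are the widest in every panel.

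Pbx3 passed in EC KO cells, and it was the only 1 of the 8 genes to do so. Pbx3 is a TALE factor that dimerizes with MEIS1 and stabilizes it in HOXA9-driven leukaemia. It had 7.87, 9.69, 7.25, 9.87 and 9.28 CPM in EC KO, against 11.6, 12.2, 14.4, 9.29 and 12.1 CPM in Spred1 wt. The groups overlapped only through Spred1 wt 4, and 3 of the 5 EC KO libraries lay below every control. Pbx3 averaged 8.79 ± 1.17 CPM in EC KO and 11.9 ± 1.82 CPM in Spred1 wt (SD, n = 5 each). The log2 difference was -0.44 with a standard error of 0.11 and an interval of -0.67 to -0.21 (edgeR adjusted p = 0.0163). This comparison called many genes: 7.96% of all tested passed, 4.47% as lower, so that 1 of 8 is near the background.

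The call of Pbx3 did not survive every setting. It was lost against HSC wt as the control, with a log2 difference of -0.31 (adjusted p = 0.0681), with sex as a covariate (-0.40, adjusted p = 0.05004), in a fit of only EC KO and Spred1 wt (-0.46, adjusted p = 0.109) and without EC KO 3 (-0.38, adjusted p = 0.0648). Among the 3 EC KO and 5 Spred1 wt libraries with Y-linked reads, in a fit of such libraries only, the difference was -0.46 (adjusted p = 0.0563). With mast cell markers as a covariate it remained past the threshold at -0.41 (adjusted p = 0.0345), and DESeq2 gave -0.46 (adjusted p = 0.00244). In the other comparisons the log2 difference of Pbx3 was -0.11 in global KO, against the same controls, and -0.19 in HSC KO against HSC wt, neither of which passed. Stem cell markers summed to 428 to 744 CPM in EC KO and 589 to 817 CPM in Spred1 wt, and Kit passed as lower in EC KO, at 516 ± 126 CPM against 930 ± 182 CPM in Spred1 wt (SD, n = 5 each). Their part in the difference of Pbx3 was not tested.

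The HOXA genes and Mn1 did not pass in EC KO cells. Hoxa9 had 78.5, 78.3, 92.7, 97.7 and 142 CPM in EC KO, against 108, 81.2, 65.1, 72.7 and 79.0 CPM in Spred1 wt. EC KO 5 was the highest of the 26 libraries, while the others lay within the controls' range. The log2 difference was 0.27 with an interval of -0.07 to 0.61 (edgeR adjusted p = 0.312). Mn1 had 6.69, 4.14, 17.4, 20.8 and 25.6 CPM in EC KO, against 16.99, 16.7, 5.57, 3.51 and 4.23 CPM in Spred1 wt. The 3 high EC KO libraries were EC KO 3, EC KO 4 and EC KO 5. The mean log2 CPM of mast cell markers was lowest of the group in the same 3. In these 3 the mean log2 CPM of macrophage markers was 5.41, 4.94 and 5.24, against 3.92 in EC KO 1 and 3.24 in EC KO 2. The log2 difference of Mn1 was 0.66 with an interval of -0.52 to 1.84 (edgeR adjusted p = 0.493), and with the mast cell markers as a covariate it was -0.96 (adjusted p = 0.0940), while with the macrophage markers as a covariate it was 0.26. Hoxa10 had a log2 difference of 0.21 without the covariate. With it, Hoxa9 was at -0.10 and Hoxa10 at -0.23.

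The remaining members moved little in EC KO. Meis1 had 160, 146, 129, 161 and 206 CPM in EC KO, within the controls' range except for EC KO 5, and its log2 difference was -0.11 with an interval of -0.41 to 0.19 (edgeR adjusted p = 0.680). Hoxa5, Hoxa7 and Hoxb4 had log2 differences of 0.07, -0.02 and 0.01, with intervals that all lay within -0.35 and 0.48. Over the 8 genes, 5 were above and 3 below 0, where 53.5% of all genes were above, with a median of 0.04 against 0.02 for all genes. With the mast cell covariate the median of the 8 was -0.23, and each of them except Hoxb4 was below 0.

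The 2 wild-type groups did not differ in any of the 8 genes, in that none passed, where 0.0299% of all genes tested did. Meis1 averaged 199 ± 39.5 CPM in HSC wt and 173 ± 29.5 CPM in Spred1 wt (SD, n = 5 each), a log2 difference of 0.20 with an interval of -0.10 to 0.50 (edgeR adjusted p = 0.876). Mn1 was at -0.34 with an interval of -1.53 to 0.85 (edgeR adjusted p = 0.957). The other 6 genes lay between -0.13 and 0.09.

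The effect of the global knockout was also set against that of the HSC knockout, each relative to its own wild type. None of the 8 genes passed, where 0.0149% of all genes tested did. The global effect minus the HSC effect was above 0 for all 8 genes, against 47.8% of all genes above 0. The HSC effect, below 0 for all 8, enters here with its sign reversed. The genes also vary together, so these are not 8 separate observations. Meis1 had the smallest p, with a difference of 0.41 and an interval of -0.0034 to 0.832 (unadjusted p = 0.0518, edgeR adjusted p = 0.9998). Hoxa5 was at 0.42, with an interval of -0.16 to 0.99. The values of Hoxa9 turned below 0 with limma voom and with the mast cell covariate. HSC KO and HSC wt both received poly(I:C), stated for these groups only, so a shift it gave to both cancels here. A change of the knockout effect by poly(I:C) and the site of deletion cannot be told apart in this contrast.

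Pairs of the 8 genes differed widely in how closely they varied together. Over the 26 libraries, log2 CPM of Hoxa9 and Hoxa10 had Pearson's r = 0.85 and Spearman's rho = 0.83, each with a permutation p of 1e-05, the smallest that 100000 permutations can give, and an adjusted p of 0.000112 for r over the 28 pairs. Without global KO 6 and EC KO 5, the libraries farthest from the median of Hoxa9, r was 0.75, and with group means subtracted it was 0.85. Mn1 followed both HOXA genes, with r = 0.76 to Hoxa9 and 0.77 to Hoxa10 (rho = 0.77 each), and 0.70 each without the 2 farthest libraries. Meis1 went with Hoxa7 (r = 0.76, rho = 0.76) and Hoxa5 (r = 0.71, rho = 0.70), and its r to Hoxa9 was 0.48 over the 26 libraries, 0.35 without the 2 farthest and 0.72 with group means subtracted. Hoxb4 had r between -0.03 and 0.35 to all others. Hoxa7 had r of 0.36 to Hoxa9, 0.32 to Hoxa10 and 0.37 to Mn1, none past an adjusted p of 0.05. Pbx3 had r = 0.55 to Meis1 (rho = 0.52, adjusted p = 0.0131 for r) and between -0.13 and 0.36 to the other 6.

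**Figure D3:**
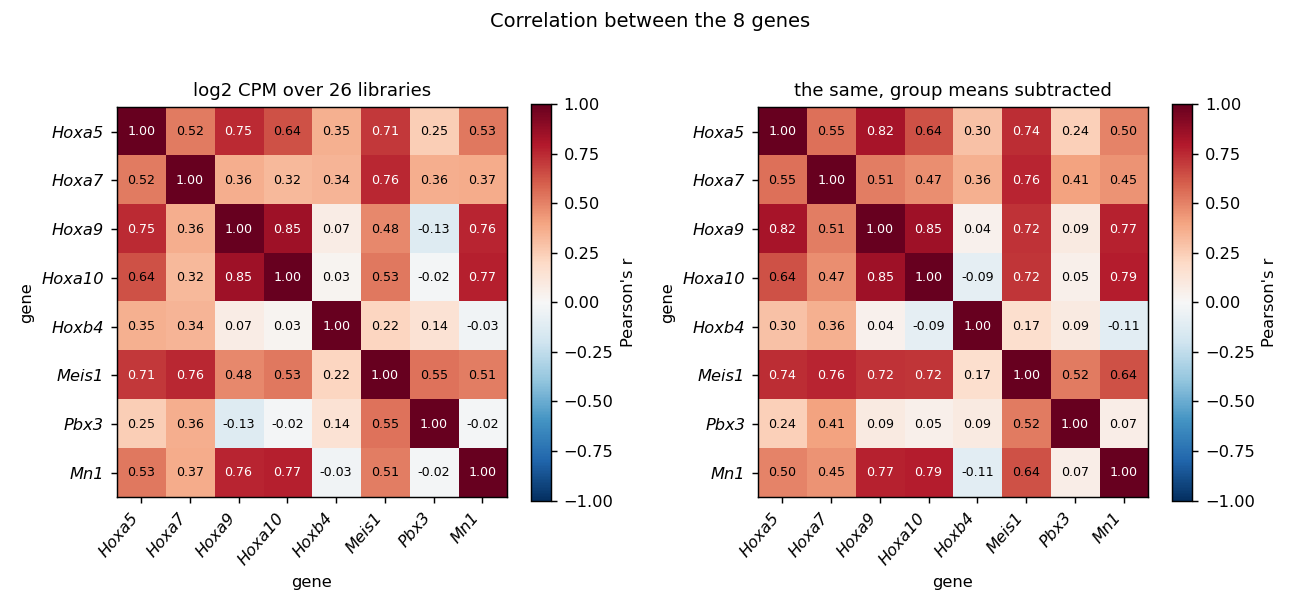
Pearson's r between the log2 CPM of each pair of the 8 genes over 26 libraries, as measured (left) and with each group's mean subtracted (right); blue is negative and red positive. The highest value is that of Hoxa9 with Hoxa10, 0.85 on both sides, the row of Hoxb4 is pale, and that of Pbx3 is pale on the left except for Meis1 (0.55) and Hoxa7 (0.36).

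Across all 89492131 pairs of tested genes the median r was -0.0045, and 8.04% of pairs had r of at least 0.5, against a median of 0.37 and 12 of 28 pairs among the 8 genes. These are pairs within the same 26 libraries, which share depth and cell composition, and genes are not independent replicates. With group means subtracted, the 8 genes had a median r of 0.48 and 13 of 28 pairs at 0.5 or above. The spread within groups differed: Mn1 had a biological coefficient of variation of 0.607, Hoxa10 of 0.239, Hoxa9 of 0.182, Pbx3 of 0.124 and Hoxa7 of 0.121, against a common value of 0.205. Mn1 ran from 3.29 CPM in HSC KO 2 to 28.3 CPM in global KO 3, and the ranges of all 5 groups overlapped.

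Mn1 was lower where the mean log2 CPM of mast cell and basophil markers was higher. Over the 26 libraries r was -0.76 and rho -0.79 (permutation p = 1e-05 each, adjusted p = 0.00056 for r over 56 relations of the 8 genes to 7 marker lists). In the 22 libraries outside the low cluster of 4, r was -0.74 and rho -0.71 (permutation p = 0.0001 and 0.00044). With group means subtracted it was -0.83 in the 26. Hoxa9 had r = -0.69 and rho = -0.61 over the 26, and -0.59 and -0.40 in the 22, where its rho had a permutation p of 0.0713. The mast cell list summed to 1550 to 13600 CPM in global KO, 1980 to 5100 CPM in EC KO, 1650 to 12100 CPM in HSC KO, 3660 to 6820 CPM in HSC wt and 2680 to 16500 CPM in Spred1 wt, with none of its 11 genes at 0 in any group. Mn1 was also higher where B and plasma cell markers were (r = 0.62, rho = 0.64) and erythroid markers were (r = 0.61, rho = 0.67), and likewise with macrophage markers (r = 0.60, rho = 0.62), endothelial markers (r = 0.58, rho = 0.60) and stem cell markers (r = 0.51, rho = 0.47), with adjusted p for r of 0.0342 or less in all 5. Over the 26 libraries the B and plasma cell list summed to 41.9 to 876 CPM and the erythroid list to 6.74 to 372 CPM.

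Meis1 followed the 12 stem cell markers most closely, with r = 0.80 and rho = 0.76 (permutation p = 2e-05 and 1e-05, adjusted p = 0.00056 for r). Without HSC wt 1 and EC KO 3, the libraries farthest from the median of the markers, r was 0.72. Pbx3 had r = 0.61 to the same markers and 0.44 with group means subtracted (permutation test, adjusted p = 0.0673). Hoxa7 (r = 0.59), Hoxa5 (0.56), Hoxa10 (0.51) and Mn1 (0.51) also had an adjusted p under 0.05, while Hoxa9 (0.34) and Hoxb4 (0.18) did not. With group means subtracted, r was 0.63 for Hoxa7, 0.56 for Hoxa5, 0.65 for Hoxa10, 0.66 for Mn1 and 0.56 for Hoxa9. Each of these had an adjusted p under 0.05. Hoxb5 is both in this marker list and in the HOXB cluster.

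**Figure D4:**
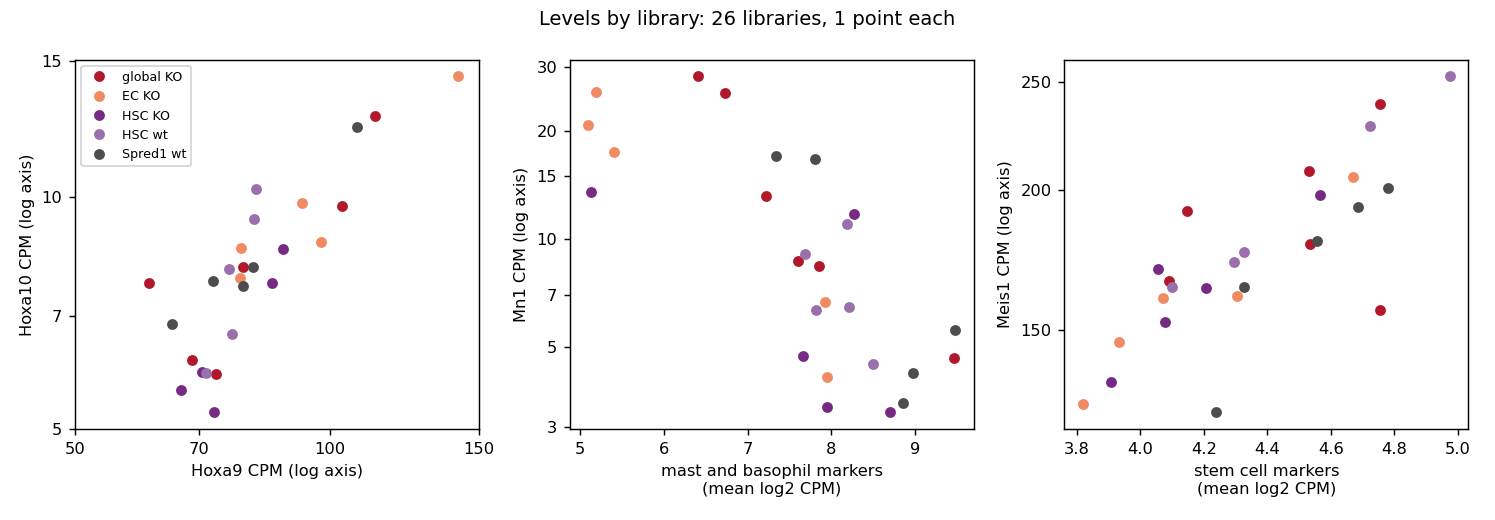
Each of the 26 libraries as 1 point coloured by group: Hoxa10 against Hoxa9 (CPM, both on log axes), Mn1 (CPM, log axis) against the mean log2 CPM of mast and basophil markers, and Meis1 (CPM, log axis) against the mean log2 CPM of stem cell markers. Hoxa10 climbs with Hoxa9 (r = 0.85), Mn1 declines with the mast markers (r = -0.76) and Meis1 climbs with the stem cell markers (r = 0.80).

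The genes whose levels were most like Meis1 over the 26 libraries were Erg (r = 0.95), Vezf1 (0.91), Myct1 (0.91), Pear1 (0.91) and Cers4 (0.90). Erg encodes an ETS factor that stem cells need. Outside the 8 genes, those most like Hoxa9 were Rabgap1l (0.85), Trim68 (0.85), Cep57l1 (0.85), Gm14325 (0.84) and Rftn2 (0.83), about as close to it as Hoxa10. These values are descriptions of the same 26 libraries, which share depth and composition.

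The neighbours of the 8 genes in their clusters did not pass in any of the 3 knockout comparisons, while with the mast cell covariate 1 HOXB gene passed in EC KO. In global KO the other HOXA genes were 3 above and 3 below 0 among 6 tested, with the smallest p for Hotairm1, a non-coding RNA of the cluster, at -0.62, and for Hoxa2 at -0.22. The HOXB genes were 5 above and 1 below, with Hoxb5os at 0.69 (unadjusted p = 0.0241) and Hoxb2 at 0.25. In HSC KO, the HOXA genes were again 3 and 3, with Hotairm1 at 0.67 and Hoxa2 at -0.47, and the HOXB genes 2 above and 4 below, with Hoxb3 at -0.40 (unadjusted p = 0.0137) and Hoxb5 at -0.38. In EC KO all 6 of these other HOXA genes were below 0, with a median of -0.21 against 0.02 over all genes, led by Hotairm1 at -0.72 and Hoxa6 at -0.39. Of the HOXA members, Hoxa5, Hoxa9 and Hoxa10 were above 0 and Hoxa7 was below. Hotairm1 was low, with 44 reads over the EC KO libraries and 56 over the Spred1 wt libraries. The HOXB genes were 2 above and 4 below, with Hoxb3 at -0.29 and Hoxb5 at -0.41.

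Among 8 tested TALE genes outside the members, Meis2 passed as lower in both global KO and EC KO, which share their controls. Meis2, a paralog of Meis1, had 5, 5, 2, 1, 1 and 6 reads in the 6 global KO libraries and 2, 4, 0, 0 and 0 reads in EC KO, against 1, 21, 71, 54 and 54 reads in Spred1 wt. The control libraries differed among themselves, with Spred1 wt 1 as low as the knockouts, and in HSC wt the gene had 6, 4, 1, 12 and 10 reads. Fitted log2 differences were -3.62 (SE 0.68, adjusted p = 0.0239) in global KO and -5.28 (SE 0.84, edgeR adjusted p = 0.000354) in EC KO. The Meis2 gene lies 1.06 Mb from Spred1 on chromosome 2. Its call in global KO was lost when 1 library was left out, be it global KO 1, 3, 4, 5 or Spred1 wt 3, 4, 5, with adjusted p from 0.0673 to 0.124. It was also lost with limma voom (0.263), with the mast cell covariate (0.128), with the macrophage covariate (0.1199) and in libraries with Y-linked reads only (0.150). The call in EC KO was lost against HSC wt (-2.38, adjusted p = 0.0968). With a filter of 1 CPM in 5 libraries, and in only the groups compared, Meis2 was too low to be tested in either comparison. Tgif2, a TALE repressor, had the next smallest p in global KO, at 0.38 (adjusted p = 0.243), and Pbx2 in EC KO, at 0.16. In HSC KO no TALE gene passed, with Pbx2 at -0.05.

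Some activators of HOX transcription passed in EC KO, in both directions. Of 16 tested genes of the MLL, menin and DOT1L machinery, 4 passed as lower and 1 as higher, against 4.47% of all genes as lower and 3.49% as higher, and the median of the 16 was -0.01 against 0.02. The number that passed ran between 2 and 8 when 1 library was left out, and was 8 with limma voom, 3 with sex as a covariate, 3 in libraries with Y-linked reads and 2 in only the groups compared. Kmt2a, which encodes the MLL methyltransferase that keeps HOXA genes on, had 309, 304, 240, 321 and 396 CPM in EC KO, against 429, 529, 370, 416 and 477 CPM in Spred1 wt. Only EC KO 5 reached into the controls' range, and the log2 difference was -0.50 with a standard error of 0.14 (edgeR adjusted p = 0.0280). Aff4 at -0.42 and Aff1 at -0.33, both parts of the elongation complexes that MLL fusions recruit, and Kat6a at -0.36, a histone acetyltransferase, also passed as lower. Dpy30, a core subunit of MLL complexes, passed as higher at 0.43. The call of Kmt2a was lost without any of EC KO 1, 2, 3 or 4 or Spred1 wt 2 or 5 (adjusted p from 0.0502 to 0.103), with sex as a covariate (0.0839), in libraries with Y-linked reads (0.0842) and in only the groups compared (0.0586), that of Dpy30 without any of EC KO 1, 2, 3 or 4 or Spred1 wt 1, 2 or 5 (0.0531 to 0.192), that of Aff1 without EC KO 3 (0.0569) or EC KO 4 (0.0635) or in only the groups compared (0.0643), and those of Aff1 and Aff4 with the mast cell covariate (0.191 and 0.142). None of the 16 passed in global KO, where Kat7 was at 0.12 and Mllt3 at -0.30, or in HSC KO, where Wdr5 was at 0.10 and Ash2l at 0.11.

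**Figure D5:**
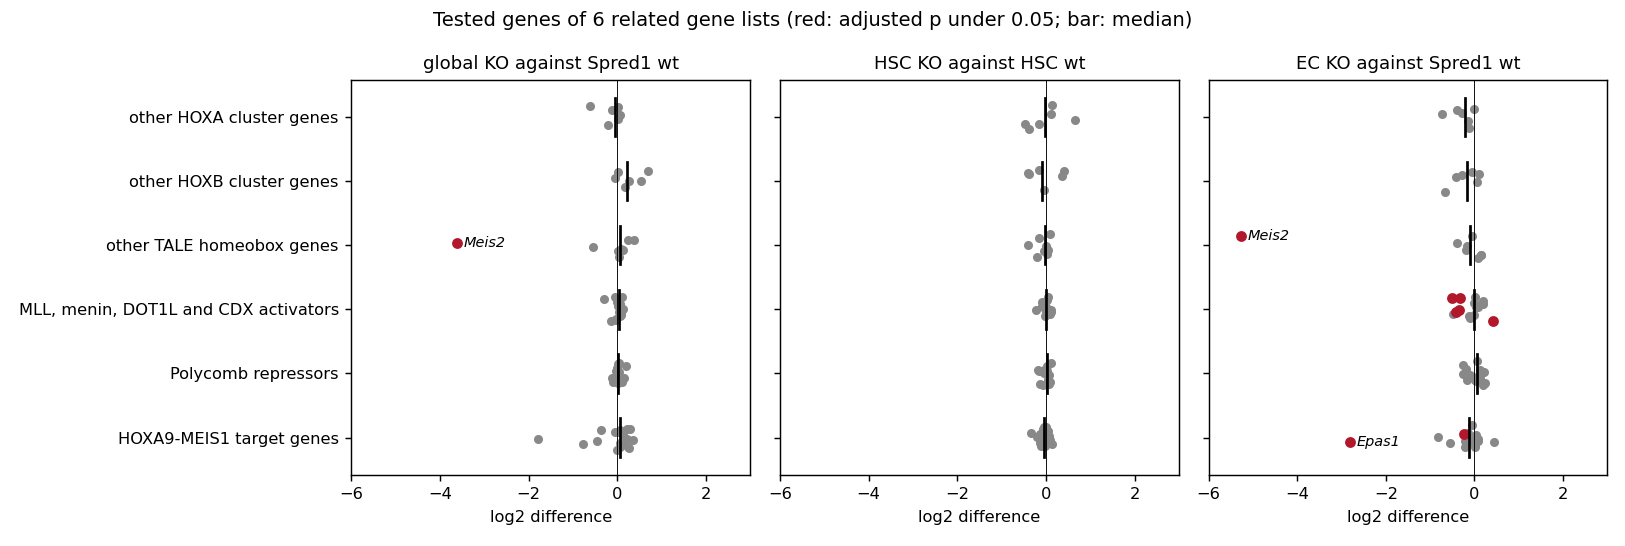
Log2 difference (horizontal axis) of the tested genes of 6 related lists (vertical axis) in the 3 knockout comparisons; each point is a gene, black bars are list medians and red marks an adjusted p under 0.05. Red points are Meis2 in global KO, none in HSC KO, and Meis2, Epas1, Syk and 5 genes of the MLL list in EC KO.

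Polycomb repressors, which keep HOX genes off, did not pass in any knockout comparison. Of 16 tested genes, 10 were above 0 in global KO (Asxl1 at 0.07, Phc2 at 0.10), 9 in HSC KO (Ezh2 at 0.11, while Cbx8 was at -0.18) and 11 in EC KO (Ezh2 at 0.20, while Asxl1 was at -0.18). Under 10 alternatives between 1 and 4 of them passed in EC KO, among them 3 without EC KO 5 and 4 with limma voom.

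Of 18 genes that HOXA9 and MEIS1 are known to bind or activate in leukaemia, 2 passed in EC KO, both as lower, where 4.47% of all genes passed as lower. The number lay between 1 and 3 with 1 library left out, and was 4 with the mast cell covariate, 1 with sex as a covariate and 1 in only the groups compared. Epas1, the hypoxia factor HIF2A and a MEIS1 target in mouse stem cells, had 1.46, 1.22, 1.70, 1.66 and 1.81 CPM in EC KO, against 3.08, 3.94, 4.63, 23.8 and 19.9 CPM in Spred1 wt. The groups did not overlap, as for 3.26% of all genes in this direction, and Spred1 wt 4 and Spred1 wt 5 stood far above the other controls. The fitted difference on the log2 scale was -2.81 with a standard error of 0.47 (edgeR adjusted p = 0.000686). Syk, a kinase that MEIS1 raises in leukaemia, passed as lower at -0.24 (adjusted p = 0.0229), and its call was lost without Spred1 wt 3 (adjusted p = 0.0661) or EC KO 4 (0.0629), in libraries with Y-linked reads (0.0664), in only the groups compared (0.103), with sex as a covariate (0.0729) and with the mast cell covariate (0.138). Of the 18 genes, 12 were below 0 in EC KO with a median of -0.12. None passed in global KO, where Epas1 was at -1.79 (adjusted p = 0.179) and Id2 at -0.77, or in HSC KO, where 14 of 18 were below 0, with a median of -0.04, Pim1 at -0.14 and Bcl2 at 0.14.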

How the data were processed

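Total RNA of sorted LSK cells was sequenced in 26 libraries of 5 groups, which were read from the titles and genotype labels. The authors deposited raw read counts per gene and library, whole numbers without normalization, and all 26 library columns were mapped to samples by their titles. The submitters' processing notes name build mm10, STAR 2.6.0, HTSeq 0.6.0, edgeR 3.28.1 and bcl2fastq 2.18.0.12. Neither the gene annotation nor how strand was handled in counting is given in the sources used here. Coordinates and gene lengths are those of the deposited table, in kb of length.

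From the counts, genes were kept by filterByExpr (minimum count 10), scaled by TMM and fitted in edgeR 4.0.16 (R 4.3.3) with robust quasi-likelihood as 5 group means with no covariate. Log2 CPM for correlations had a prior count of 2, and permutation tests used 100000 resamples. Totals lay between 14816071 and 26714325 counts. A count of 0 allows up to 3 counts, for counting error only. The fit was checked on simulated counts with known fold changes. Alternatives were DESeq2 1.42.0, limma 3.58.1 voom, other scalings and filters, covariates for sex and for mast cell or macrophage markers, other controls, and each library left out. A fit of libraries with Y-linked reads was added after seeing the data, as was the split of the libraries by mast cell markers. The 8 genes, the lists and their markers were chosen with earlier results of these data known. Named genes are the 8, Spred1, each list gene that passed, the 2 of smallest p per list and knockout comparison, the highest HOXA and HOXB genes, and the 5 genes most correlated with Hoxa9 and with Meis1. Kit, Mir196b, Mir10a and the untested HOX genes lie outside this rule. A further list gene of small p that this rule names is not reported here. Sequences were read from RefSeq tables and GENCODE M21 (Python 3.11.15).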

Additional observations from a re-analysis of the deposited data

Results flagged for a closer look

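Hoxa10 stood apart in 1 library. It was at 12.3 CPM in Spred1 wt 1, against 6.84 to 8.12 CPM in the other 4 Spred1 wt libraries, a gap to the nearest of 0.766 of the group's range. Hoxa9 was also highest in Spred1 wt 1 of its group, at 108 CPM. Of 85 groups of libraries tested in this way, 40 of them for the 8 genes, this was the only 1 found, and chance alone flags about 1 in 20. The log2 difference of Hoxa10 in global KO was -0.03 with this library and 0.13 without it, and in EC KO it was 0.21 with it and 0.36 without it; none of these passed.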

How the results depend on the processing

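The 8 genes had 952 log2 differences under the alternatives. Of these, 862 kept their direction and their side of the threshold, 5 lost a call and 85 changed sign, none of the last past the threshold. The calls lost were those of Pbx3 in EC KO, which passed in 18 of 23 alternatives, and the number of the 8 genes called in EC KO was then 0: with the sex covariate (-0.4017), in libraries with Y-linked reads only (-0.4564), in only the groups compared (-0.4628), against HSC wt (-0.3132) and without EC KO 3. Leaving out 1 library gave Pbx3 between -0.5309 and -0.361. The cause of the sign changes was not tested.

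Signs turned as follows. In global KO, limma voom gave Hoxa9 -0.0244, the mast cell covariate Hoxa9 -0.1227, Hoxb4 0.01539 and Mn1 -0.04822, and the macrophage covariate Hoxb4 0.01473. In HSC KO, limma voom gave Hoxa7 0.001303, and the sex covariate Hoxa9 0.0336 and Mn1 0.2395. In EC KO, Hoxb4 was -0.009583 with DESeq2, -0.009868 with RLE scaling, -0.005649 with no filter, -0.008645 with 1 CPM in 5 libraries, -0.006787 with limma voom, -0.0342 with the sex covariate, -0.07632 in libraries with Y-linked reads, -0.01614 in only the groups compared and -0.002231 against HSC wt. Hoxa5 in EC KO was -0.1169 with limma voom, and with the mast cell covariate Hoxa5 was -0.2203, Hoxa9 -0.09961, Hoxa10 -0.2299 and Mn1 -0.9584. In HSC wt against Spred1 wt, limma voom gave Hoxa5 -0.07937, Hoxa7 -0.003615 and Hoxb4 -0.03808, the sex covariate Hoxa9 0.02023, Hoxa10 0.01474 and Hoxb4 -0.03087, the macrophage covariate Hoxa9 0.04004, Hoxa10 0.04685, Hoxb4 -0.02829 and Mn1 0.3313, and libraries with Y-linked reads Hoxa10 0.04111 and Hoxb4 -0.01385. For the global minus the HSC effect, Hoxa9 was -0.003125 with limma voom and -0.02351 with the mast cell covariate.

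Leaving out 1 library turned signs within these ranges. In global KO they were Hoxa5 -0.01247 to 0.2313, Hoxa7 -0.02534 to 0.1082, Hoxa9 -0.073 to 0.1498, Hoxa10 -0.1816 to 0.1342 and Hoxb4 -0.0757 to 0.03739. In HSC KO they were Hoxa9 -0.06575 to 0.02478 and Mn1 -0.3546 to 0.1617. In EC KO they were Hoxa5 -0.1811 to 0.1686, Hoxa7 -0.1327 to 0.05792 and Hoxb4 -0.06403 to 0.1209. In HSC wt against Spred1 wt they were Hoxa5 -0.05166 to 0.1407, Hoxa7 -0.002227 to 0.1427, Hoxa9 -0.1363 to 0.05267, Hoxa10 -0.184 to 0.07789 and Hoxb4 -0.06142 to 0.05921. For the global minus the HSC effect they were Hoxa9 -0.06041 to 0.1737 and Pbx3 -0.00523 to 0.1525.

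Correlations near 0 also turned: with group means subtracted, r was 0.0915 for Hoxa9 with Pbx3, -0.08877 for Hoxa10 with Hoxb4, 0.05 for Hoxa10 with Pbx3 and 0.06719 for Pbx3 with Mn1. Without the 2 farthest libraries it was -0.2862 for Hoxb4 with Pbx3, 0.1947 for Hoxb4 with Mn1 and 0.1758 for Pbx3 with Mn1. Larger correlations also moved across the threshold. Without these libraries, Hoxa5 lost its call with Hoxa7 (permutation test, adjusted p = 0.0637), Hoxa10 (0.0927) and Mn1 (0.184). Meis1 lost its call with Hoxa9 (0.161) and Hoxa10 (0.0899). Hoxa7 gained a call with Hoxa9, Hoxa10 and Mn1, both there and with group means subtracted.

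Counts of all genes called moved more. Global KO had 10 (740 at an unadjusted p under 0.05), 35 with DESeq2, 20 with the mast cell covariate, 4 in only the groups compared and 8 to 25 with 1 library left out. HSC KO had 3 (289 unadjusted), 5 with DESeq2, 5 with the mast cell covariate and 0 in libraries with Y-linked reads. EC KO had 1065, 1824 with limma voom, 636 with the sex covariate, 2749 with the mast cell covariate, 333 in only the groups compared, 2052 against the mean of both wild types and 483 to 1880 with 1 library left out. HSC wt against Spred1 wt had 4, 32 with DESeq2, 18 with limma voom, 74 with the mast cell covariate, 1 in libraries with Y-linked reads, 1 in only the groups compared and 1 to 21 with 1 library left out. The global minus the HSC effect had 2, 7 with DESeq2, 5 with limma voom, 1 in libraries with Y-linked reads and 2 to 7 with 1 library left out. Libraries whose omission moved such a count by over 1.5 times were, in global KO, global KO 2 (21), Spred1 wt 1 (25) and Spred1 wt 2 (24), and in EC KO, EC KO 3 (483), EC KO 4 (628), EC KO 5 (1880) and Spred1 wt 5 (584). In HSC wt against Spred1 wt they were each HSC wt library (1 or 2), Spred1 wt 1 (21), Spred1 wt 3 (2) and Spred1 wt 4 (2), and for the global minus the HSC effect, global KO 2 (4) and Spred1 wt 1 (7). Among list genes, Meis2 in global KO lost its call in 11 alternatives, and in EC KO Kmt2a did in 9 (adjusted p from 0.0502 to 0.103) and Dpy30 in 13 (0.0515 to 0.192), the sex covariate among both. HOXC and HOXD genes were below the depth needed for a test. No paired analysis was possible because the labels number the samples 1 to 26 and give no number shared between groups.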

Other observations

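Genes at the ends of the correlation range with the 8 genes were looked at after their values were seen. Those most like Mn1 over the 26 libraries were Shisa8 (r = 0.95), H2-Ob (0.94), C030013G03Rik (0.92), Apol7e (0.92) and Lck (0.91). H2-Ob is a class II histocompatibility gene of B and dendritic cells, and Lck is the tyrosine kinase of T cell receptor signalling. Those most opposite to Mn1 were Cgnl1 (-0.89), Dock5 (-0.88), Clint1 (-0.88), 2010111I01Rik (-0.88) and Ackr1 (-0.88).

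Meis1 was most opposite to Ssr2 (r = -0.94), Ctsg (-0.94), Pgd (-0.94), P4hb (-0.93) and Cdc34 (-0.93). Ctsg encodes cathepsin G of granulocyte precursors, Ssr2 and P4hb encode proteins of the endoplasmic reticulum, and Pgd is an enzyme of the pentose phosphate pathway. Hoxa9 was most opposite to Emilin1 (-0.92), Ergic1 (-0.89), Cad (-0.89), Sec31a (-0.87) and Sympk (-0.86). Cad starts pyrimidine synthesis, and Ergic1 and Sec31a act in transport out of the endoplasmic reticulum. Most like Pbx3 were Shroom4 (0.86), Prkacb (0.86), Bmpr2 (0.86), Bach2 (0.82) and Gatsl2 (0.81). All are r values over the same 26 libraries, which share depth and cell composition.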
